A study of Rattus norvegicus with 12 samples.

Results

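The synaptic vesicle and release machinery comprises the proteins that fill, dock, fuse and recover the vesicles of nerve terminals. Its members were taken by gene symbol from the array annotation. They were all probe sets whose single symbol was Svop, Snap25, Syp, Nsf, Napa, Napb, Bsn, Pclo, Dnm1, Synj1 or Syn1 to Syn3, or one of the families Syt, Stx, Vamp, Sv2, Rims, Unc13, Cplx, Syngr and Slc17a6 to Slc17a8. This gave 89 probe sets for 65 genes, out of 15866 probe sets that were not controls. Of the 89, 64 probe sets for 48 genes passed the filter on low signal and were tested, 25 lay below it, and 17 genes had no probe set above it. The rule uses symbols and no signal of these arrays, but it was chosen with earlier results of these data known.

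RNA was measured in hippocampus of young rats on single-colour oligonucleotide arrays, to ask whether enriched housing lessens the injury that seizures do to neurons. There were 4 groups of 3 samples. KA_enriched rats received KA on postnatal day 20 and lived in an enriched environment with 8 rats in a large cage, PBS_enriched rats received PBS and had the same housing, KA_isolated rats received KA and lived alone for 10 days, and PBS_isolated rats received PBS and lived alone for 10 days. KA is read here as kainic acid, an excitotoxin that induces seizures through glutamate receptors, and PBS as phosphate-buffered saline, its vehicle; the labels spell out neither. Tissue of 3 to 4 animals was combined for each array, so replicates are pools of animals and p-values measure the spread between pools. Strain, sex and cage of the animals are not given in the labels used here. No group had ordinary group housing, so enrichment and isolation cannot be told apart, and neither can a shared cage and enrichment.

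A vesicle is loaded with glutamate by transporters of the Slc17a family and held in a cluster with other vesicles by synapsins. It is docked and primed at the active zone by Rims, Bsn, Pclo and Unc13 proteins, and fuses when VAMP on the vesicle zips up with syntaxin and SNAP-25 on the plasma membrane, under the control of synaptotagmins and complexins. NSF and its adaptor then take the complex apart, and dynamin and synaptojanin return the membrane to the vesicle pool. Release probability in the hippocampus sets how strongly pyramidal cells drive each other, and SV2A, one of the vesicle glycoproteins, is the binding site of the antiseizure drug levetiracetam.

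Of the 64 tested members, limma called 0 at an adjusted p under 0.05 in each of 7 comparisons. The comparisons were KA against PBS within each housing and as a mean of both housings, enriched against isolated within each treatment and as a mean of both treatments, and the interaction, obtained by subtracting the KA difference of isolated rats from the one of enriched rats. The members of smallest p were Svop and Synj1, both in comparisons with KA_enriched. Their groups did not overlap between KA_enriched and PBS_enriched, Svop being low and Synj1 high in KA_enriched, and neither passed. For Snap25, Syp, Syn1, Nsf, Bsn and Slc17a7, log2 differences between KA and PBS lay between -0.19 and 0.14 in either housing. This range covers all tested probe sets of these genes, which are only a part of the core genes. Other members lay outside it for KA in enriched rats, among them Vamp2 (0.36), Unc13a (0.26) and Svop (-0.62). The range is therefore not a result for the machinery as a whole. Since tissue pools were measured, fewer cells of a type and less RNA per cell cannot be told apart.

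Svop encodes a vesicle membrane protein related to SV2 and built like a transporter, and Synj1 encodes synaptojanin 1, the phosphoinositide phosphatase that strips clathrin from recovered vesicles. Their promoters, from 250 bases before to 50 bases after the annotated start, are shown because these were the members with the smallest p-values. They are given as RefSeq has them on build GRCr8, at chr12:48191299-48191598 on the plus strand for Svop and chr11:43755477-43755776 on the minus strand for Synj1. Capitals mark TGACG, the core of the cyclic AMP response element, searched on both strands.
Svop promoter: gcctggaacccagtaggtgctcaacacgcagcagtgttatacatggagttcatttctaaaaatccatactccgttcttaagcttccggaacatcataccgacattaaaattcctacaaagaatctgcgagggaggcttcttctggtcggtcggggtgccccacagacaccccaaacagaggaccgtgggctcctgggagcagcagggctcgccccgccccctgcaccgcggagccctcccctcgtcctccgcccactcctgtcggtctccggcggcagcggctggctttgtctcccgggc
Synj1 promoter: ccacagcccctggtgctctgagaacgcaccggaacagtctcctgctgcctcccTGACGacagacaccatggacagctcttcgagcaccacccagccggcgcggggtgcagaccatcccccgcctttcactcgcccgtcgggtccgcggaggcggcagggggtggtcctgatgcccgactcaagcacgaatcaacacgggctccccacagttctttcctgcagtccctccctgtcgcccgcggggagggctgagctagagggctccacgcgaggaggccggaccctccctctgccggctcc
TGACG was found in neither orientation in the Svop window and once in the Synj1 window, 197 bases before the start. RefSeq promoters could be matched for 51 of the 65 member genes, with 52 entries. Of these 52, 18 held TGACG (34.6%), against 21.2% of 33469 promoters of the same length, among them those of Cplx1, Dnm1, Syn1, Unc13a and Vamp2. The motif GCGNGGGCG, bound by Egr factors and searched on both strands, was in 8 of 52 (15.4%), against 4.98% of all. Among these were the promoters of Nsf, Syn1, Syn2 and Syp; the windows of Svop and Synj1 did not hold it. These are counts of letters and not of bound sites. The base composition of member promoters was not matched to that of all promoters, and the windows of Svop and Synj1 themselves were 60% and 68.7% G or C.

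The 12 arrays were alike in level, with array medians between 70.06 and 74.1 and correlations of log2 values between 0.9808 and 0.9905. KA_enriched replicate 3 stood apart, with the lowest mean correlation (0.983) and the highest log2 ratio of 3 prime to 5 prime signal for beta-actin (0.856, against 0.361 to 0.639 in the other 11 arrays). Its ratios were the highest for GAPDH (0.249, against 0.095 to 0.176) and hexokinase (1.60, against 0.977 to 1.36) as well. Of 12 hippocampal and neuronal markers 9 were on the array, and their summed signal was 5989 to 6793 in KA_enriched, 6202 to 6659 in PBS_enriched, 6020 to 6442 in KA_isolated and 6744 to 6882 in PBS_isolated. Prox1, the dentate granule cell marker, lay between 225 and 253 in every pool, while C1ql3, on the same list, lay between 2.65 and 5.71. The summed signal of 14 microglial and macrophage markers was 1393, 1202 and 1820 in KA_enriched and 1253, 1914 and 1277 in PBS_enriched. It was 1774 to 2117 in KA_isolated and 1218 to 1300 in PBS_isolated. KA_enriched replicate 3 and PBS_enriched replicate 2 thus lay within the KA_isolated range, and the other enriched pools lay below it. By summed signal, both lists separated KA_isolated from PBS_isolated. So did 7 astrocyte markers (10256 to 10871 in KA_isolated against 9291 to 10104 in PBS_isolated) and 8 interneuron markers (3889 to 4142 against 4151 to 4247). With equal weight for each marker, as a mean of centred log2 values, the astrocyte and interneuron lists overlapped. Astrocyte scores were then 0.049, 0.103 and 0.011 in KA_isolated against 0.041, -0.048 and -0.089 in PBS_isolated. Interneuron scores were -0.027, -0.041 and 0.039 against 0.061, 0.024 and 0.0033. In summed signal, PBS_enriched also lay apart from PBS_isolated in the neuronal list, in the interneuron list (3894 to 4020 against 4151 to 4247) and in 7 thalamus and striatum markers (431 to 461 against 382 to 418). The interneuron markers did not move as a set. Gad1, Sst and Cck were lower in all PBS_enriched pools, Npy was higher in all, and the others overlapped. Equal-weight interneuron scores overlapped, at 0.040, -0.036 and 0.0073 in PBS_enriched against 0.061, 0.024 and 0.0033 in PBS_isolated. The summed signal of 5 choroid plexus markers was 323 to 877 in KA_enriched against 245 to 304 in PBS_enriched, and in PBS_isolated it was 2914 in replicate 1 against 251 and 429 in the other pools. The part of these markers in the values below was not tested.

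The vesicle membrane proteins held the member with the widest difference. Svop had signals of 373, 332 and 277 in the KA_enriched pools, 491.5, 514 and 525 in the PBS_enriched pools, 498, 356 and 516 in the KA_isolated pools and 400.4, 403 and 452 in the PBS_isolated pools. All KA_enriched pools were below all PBS_enriched pools, and all PBS_enriched pools were above all PBS_isolated pools, while the KA_isolated pools spread over the PBS_isolated ones. On the log2 scale Svop was 0.62 lower in KA_enriched than in PBS_enriched (difference -0.62, SE 0.13, 95% interval -0.91 to -0.34, limma adjusted p = 0.842), and it ranked 3 of 9520 by p. The difference was 0.10 (SE 0.13, interval -0.18 to 0.39, limma adjusted p = 0.999) between KA_isolated and PBS_isolated. The interaction was -0.73 (SE 0.19, interval -1.13 to -0.33, limma adjusted p = 0.857), which did not pass either. Without KA_enriched replicate 3, the KA difference in enriched rats was -0.51 (limma adjusted p = 0.609), and with the beta-actin ratio of each array as a covariate it was -0.60. Adjusted p-values for that difference ranged from 0.331 to 0.999 when 1 pool at a time was left out.

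**Figure D1:**
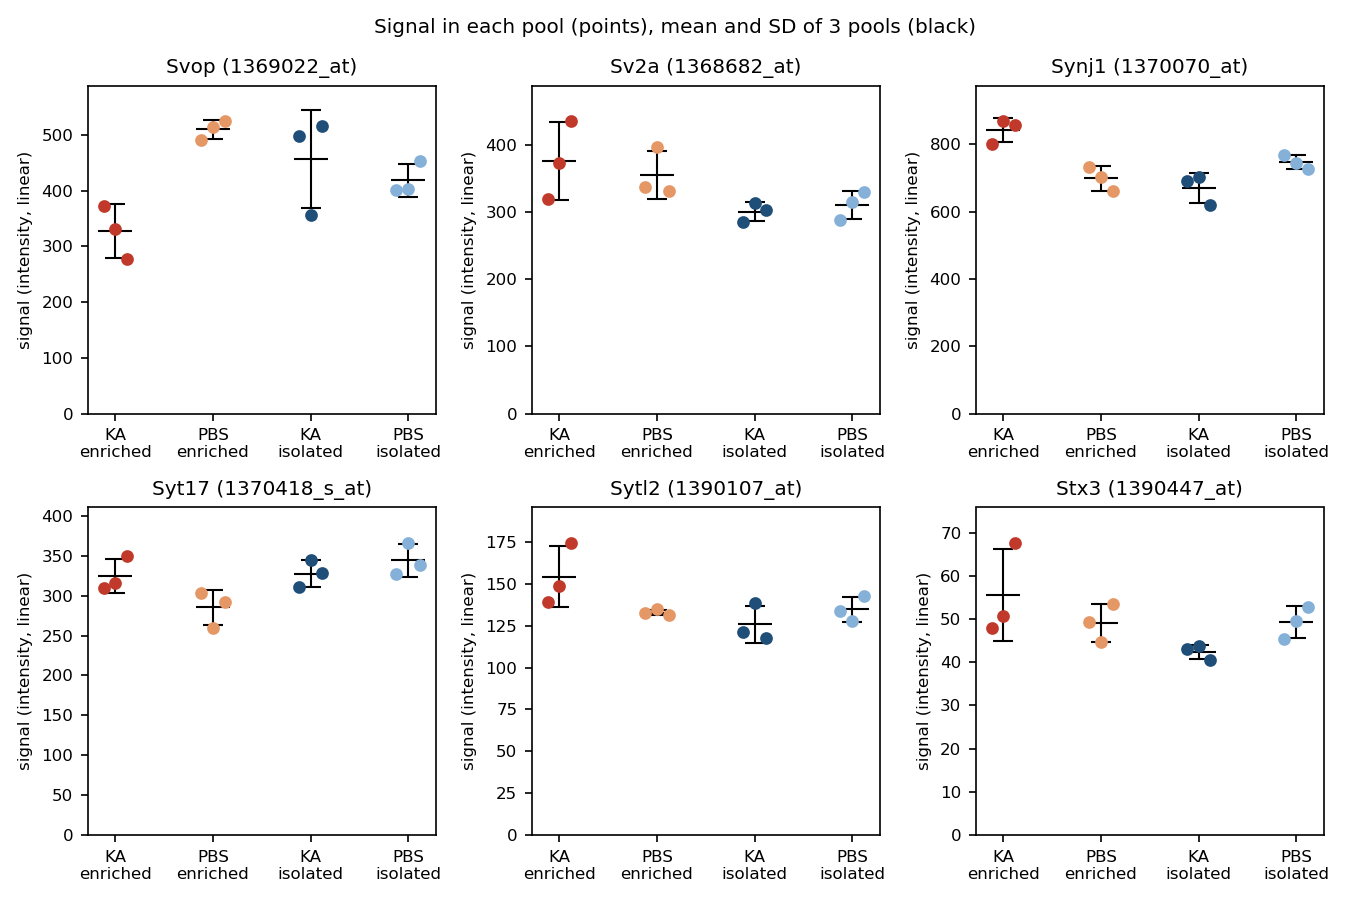
Signal (linear array intensity) of 6 member probe sets in each of the 12 pools, with group means and SD (n = 3), KA_enriched at the left of each panel. The Svop pools of KA_enriched, at 277 to 373, lie below those of PBS_enriched at 491 to 525, and the Synj1 pools of KA_enriched, at 802 to 869, lie above those of the other 3 groups.

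Sv2a, the glycoprotein named above, was higher in enriched pools without passing the test. Its signals were 320.1, 374 and 436 in KA_enriched, 337, 397 and 332 in PBS_enriched, 286, 313 and 303 in KA_isolated and 288, 315 and 330.4 in PBS_isolated. Every enriched pool was above the isolated pools of the same treatment, by a log2 of 0.30 after KA (SE 0.11, limma adjusted p = 0.633) and 0.18 after PBS (SE 0.11, limma adjusted p = 0.998), or 0.10 after PBS without PBS_enriched replicate 2. The mean housing difference was 0.24 (SE 0.08, interval 0.08 to 0.40, limma adjusted p = 0.832), so it did not pass. With the beta-actin ratio of each array as a covariate, this difference was 0.17. Sv2b, a second form of the glycoprotein, was measured by 2 tested probe sets that disagreed in 1 pool. Probe set 1369627_at read 534 in KA_enriched replicate 3, against 1091 and 1206 in the other KA_enriched pools, and 1369628_at read 1945, against 1988 and 1966. A low value in that pool was thus seen with one probe set and not with the other.

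Synaptophysin (Syp), the most used marker of vesicles, averaged 1706 ± 145 in KA_enriched, 1671 ± 116 in PBS_enriched, 1689 ± 123 in KA_isolated and 1669 ± 106 in PBS_isolated (SD, n = 3 each). Its 95% intervals for KA against PBS were -0.17 to 0.22 in enriched and -0.18 to 0.21 in isolated rats, on the log2 scale. Synaptogyrin 2 (Syngr2), a form found mostly outside neurons, had 2 tested probe sets that went opposite ways. By 1369554_at the KA difference in enriched rats was 0.43 (SE 0.16, limma adjusted p = 0.932), with 64.2, 61.4 and 79.5 in KA_enriched against 49.8, 33.2 and 57.3 in PBS_enriched, and no overlap; without PBS_enriched replicate 2 it was 0.27. By 1388571_at it was -0.11 (SE 0.11), with 51.8, 53.1 and 59.9 against 63.7, 65.4 and 53.5, which overlapped. Of the 8 tested probe sets of this class, 5 were higher and 3 lower in KA_enriched than in PBS_enriched, with a median log2 of 0.015.

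Among the endocytosis genes, Synj1 was high in KA_enriched. Its signals were 802, 869 and 857 in KA_enriched, 733, 703 and 661 in PBS_enriched, 689.8, 702.5 and 621 in KA_isolated, and 769, 745 and 728 in PBS_isolated. KA_enriched pools lay above all others, and KA_isolated pools lay below all PBS_isolated pools. The KA difference was 0.26 in enriched rats (SE 0.07, interval 0.10 to 0.43, limma adjusted p = 0.842) and -0.15 in isolated rats (SE 0.07, interval -0.31 to 0.01, limma adjusted p = 0.999), or -0.10 without KA_isolated replicate 3. The interaction was 0.42 (SE 0.11, interval 0.19 to 0.65, limma adjusted p = 0.857). Between KA_enriched and KA_isolated the difference was 0.32 (SE 0.07, interval 0.16 to 0.48), and its adjusted p (limma, 0.538) was the lowest of any member in any comparison. Dynamin 1 (Dnm1), the GTPase that pinches vesicles off the membrane, averaged 2703 ± 447 in KA_enriched, 2873 ± 111 in PBS_enriched, 3004 ± 302 in KA_isolated and 2931 ± 126 in PBS_isolated (SD, n = 3 each). Its groups overlapped, with intervals of -0.34 to 0.14 for KA in enriched rats and -0.21 to 0.28 in isolated rats.

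Among the SNARE proteins that drive fusion, the groups overlapped in the 4 comparisons of single groups for Snap25, Stx1a and Vamp2. Snap25, the plasma membrane SNARE, averaged 3175 ± 112 in KA_enriched, 3130 ± 217 in PBS_enriched, 3201 ± 133 in KA_isolated and 3118 ± 198 in PBS_isolated (SD, n = 3 each), and its KA intervals were -0.15 to 0.19 and -0.13 to 0.21 in enriched and isolated rats. Syntaxin 1A (Stx1a), its partner, gave KA differences of -0.03 and -0.13 in enriched rats by its 2 probe sets (SE 0.10 and 0.08), and 0.01 and 0.03 in isolated rats; the -0.13 was -0.07 without KA_enriched replicate 2. Vamp2, the vesicle SNARE of most central synapses, had 1265, 1013 and 1618 in KA_enriched against 1053, 997 and 918 in PBS_enriched, with overlap. Its difference of 0.36 (SE 0.16, interval 0.02 to 0.71, limma adjusted p = 0.932) was 0.19 without KA_enriched replicate 3. The 7 tested probe sets of this class gave KA differences between -0.13 and 0.36 in enriched rats and between -0.14 and 0.06 in isolated rats. Vamp1, the VAMP of fast-firing neurons, had 647, 592 and 632 in KA_isolated against 675.5, 665 and 677 in PBS_isolated by 1373510_at, without overlap (difference -0.11, SE 0.08, limma adjusted p = 0.999), and its other 2 probe sets overlapped.

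The vesicular glutamate transporters gave no passing difference. VGLUT1 (Slc17a7), the transporter of pyramidal and granule cells, averaged 2267 ± 129 in KA_enriched, 2164 ± 60.2 in PBS_enriched, 2353 ± 241 in KA_isolated and 2210 ± 66.9 in PBS_isolated by 1368987_at (SD, n = 3 each), with KA intervals of -0.11 to 0.25 in enriched and -0.09 to 0.27 in isolated rats. Its other probe set, 1368986_at, gave -0.19 and 0.12 (SE 0.17 each). VGLUT2 (Slc17a6), used by inputs from below the cortex, had 137, 112 and 126.5 in KA_enriched against 136, 142 and 159 in PBS_enriched. Its KA difference was -0.19 (SE 0.10, limma adjusted p = 0.932), or -0.13 without KA_enriched replicate 2, and the groups overlapped.

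Synapsins, which tether vesicles to each other and to actin, were tested by 4 probe sets. Syn1 averaged 1314 ± 131 in KA_enriched, 1246 ± 48.4 in PBS_enriched, 1310 ± 106 in KA_isolated and 1387 ± 90.8 in PBS_isolated by 1390196_at (SD, n = 3 each). Its KA intervals were -0.13 to 0.27 in enriched and -0.28 to 0.12 in isolated rats, and all PBS_enriched pools were below all PBS_isolated pools (difference -0.15, SE 0.09, limma adjusted p = 0.998). By 1369251_a_at these pools overlapped, at 517, 478 and 469 in PBS_enriched against 559, 456 and 547 in PBS_isolated. Syn2 gave KA differences of -0.09 in enriched rats and 0.13 in isolated rats by 1370431_at (SE 0.09 each). Syn3 lay below the filter.

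The synaptotagmins sense calcium or, in atypical forms, act without it. The 9 tested probe sets of this class held 4 higher and 5 lower in KA_enriched than in PBS_enriched, and 5 higher and 4 lower in KA_isolated than in PBS_isolated. Syt17, an atypical form, had 309, 316 and 349 in KA_enriched, 303, 260.1 and 293 in PBS_enriched, 311, 344 and 328 in KA_isolated and 327, 366.5 and 339 in PBS_isolated by 1370418_s_at. PBS_enriched pools were below all pools of the other 3 groups. The difference between PBS_enriched and PBS_isolated was -0.26 (SE 0.08, interval -0.44 to -0.08, limma adjusted p = 0.998), and by 1398305_at it was -0.16 (SE 0.09), also without overlap. Syt3 had a KA difference of -0.20 in isolated rats (SE 0.12, limma adjusted p = 0.999). Syt4, an atypical form found on dense-core vesicles, had a mean KA effect of -0.19 by 1387662_at (SE 0.10, limma adjusted p = 0.996), or -0.09 without KA_enriched replicate 3. By its brighter probe set, 1375877_at, Syt4 averaged 450 in KA_enriched, 442 in PBS_enriched, 450 in KA_isolated and 480 in PBS_isolated. The difference of Syt12 between PBS_enriched and PBS_isolated was 0.20 (SE 0.16, limma adjusted p = 0.998), or 0.12 without PBS_isolated replicate 1. The main fast calcium sensor of forebrain synapses, Syt1, was not analysed here.

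Complexin 1 (Cplx1), which clamps and then helps fusion, averaged 1437 ± 14.0 in KA_enriched, 1388 ± 8.22 in PBS_enriched, 1431 ± 26.3 in KA_isolated and 1480 ± 35.4 in PBS_isolated by 1398357_at (SD, n = 3 each). The KA_enriched pools were all above the PBS_enriched pools, by a log2 of 0.05 (SE 0.06, interval -0.08 to 0.18, limma adjusted p = 0.966). By its other probe set, 1369811_at, the difference was 0.19. The pools then read 626, 557 and 583 in KA_enriched against 571, 466 and 506 in PBS_enriched, which overlapped. Of the active zone scaffolds, Bsn averaged 872 ± 91.2 in KA_enriched, 878 ± 28.4 in PBS_enriched, 883 ± 70.4 in KA_isolated and 891 ± 66.1 in PBS_isolated by 1374192_at, with KA intervals of -0.21 to 0.18 in both housings. Pclo, its relative, had wider intervals, -0.54 to 0.26 in enriched and -0.26 to 0.54 in isolated rats. Rims1, which links vesicles to calcium channels, gave 0.07 and -0.09 (SE 0.12 each) for KA in enriched and isolated rats.

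Unc13a, the priming factor that opens syntaxin, had 75.6, 56.5 and 41.2 in KA_enriched, 44.7, 44.9 and 43.2 in PBS_enriched, 50.1, 45.8 and 58.9 in KA_isolated and 52.5, 58.6 and 55.6 in PBS_isolated. The KA_enriched pools spread on both sides of the PBS_enriched ones, and the PBS_enriched pools were all below the PBS_isolated pools. Its KA difference was 0.26 in enriched rats (SE 0.13, interval -0.02 to 0.55, limma adjusted p = 0.932). Nsf, the ATPase that takes spent SNARE complexes apart, gave KA differences from -0.02 to -0.01 in enriched rats and from -0.01 to 0.14 in isolated rats over its 3 probe sets. Stxbp6, which binds SNAREs and limits fusion, had an interaction of -0.23 (SE 0.14, limma adjusted p = 0.959), or -0.11 without KA_isolated replicate 2.

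Syntaxins, VAMPs and related proteins of other compartments made up 15 tested probe sets. Sytl2, an effector of the small GTPase Rab27, had 139, 149 and 175 in KA_enriched, 132.5, 135 and 131 in PBS_enriched, 121, 138 and 118 in KA_isolated and 134, 128 and 143 in PBS_isolated. The KA_enriched pools were all above the KA_isolated pools, by a log2 of 0.26 (SE 0.09, interval 0.07 to 0.45, limma adjusted p = 0.630). Stx3, a plasma membrane syntaxin, had 48.0, 50.7 and 67.7 in KA_enriched against 43.0, 43.6 and 40.5 in KA_isolated, also without overlap (difference 0.28, SE 0.10, limma adjusted p = 0.630). With the beta-actin ratio of each array as a covariate, the Stx3 difference was 0.18, and without KA_enriched replicate 3 it was 0.16. The endosomal syntaxins Stx7 and Stx12 stood at a log2 of 0.10 for KA in isolated rats (Stx7, SE 0.08) and at -0.10 for the mean KA effect (Stx12, SE 0.05), and Stx5, the Golgi syntaxin, had a mean housing difference of -0.12 (SE 0.07). None of these passed, and single pools moved them: Stx7 was 0.17 without PBS_isolated replicate 1 and 0.03 without PBS_isolated replicate 2, and Stx5 was -0.19 without KA_enriched replicate 1 and -0.07 without KA_enriched replicate 2. With array weights or the beta-actin covariate, Stx5 was -0.07 or -0.06.

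**Figure D2:**
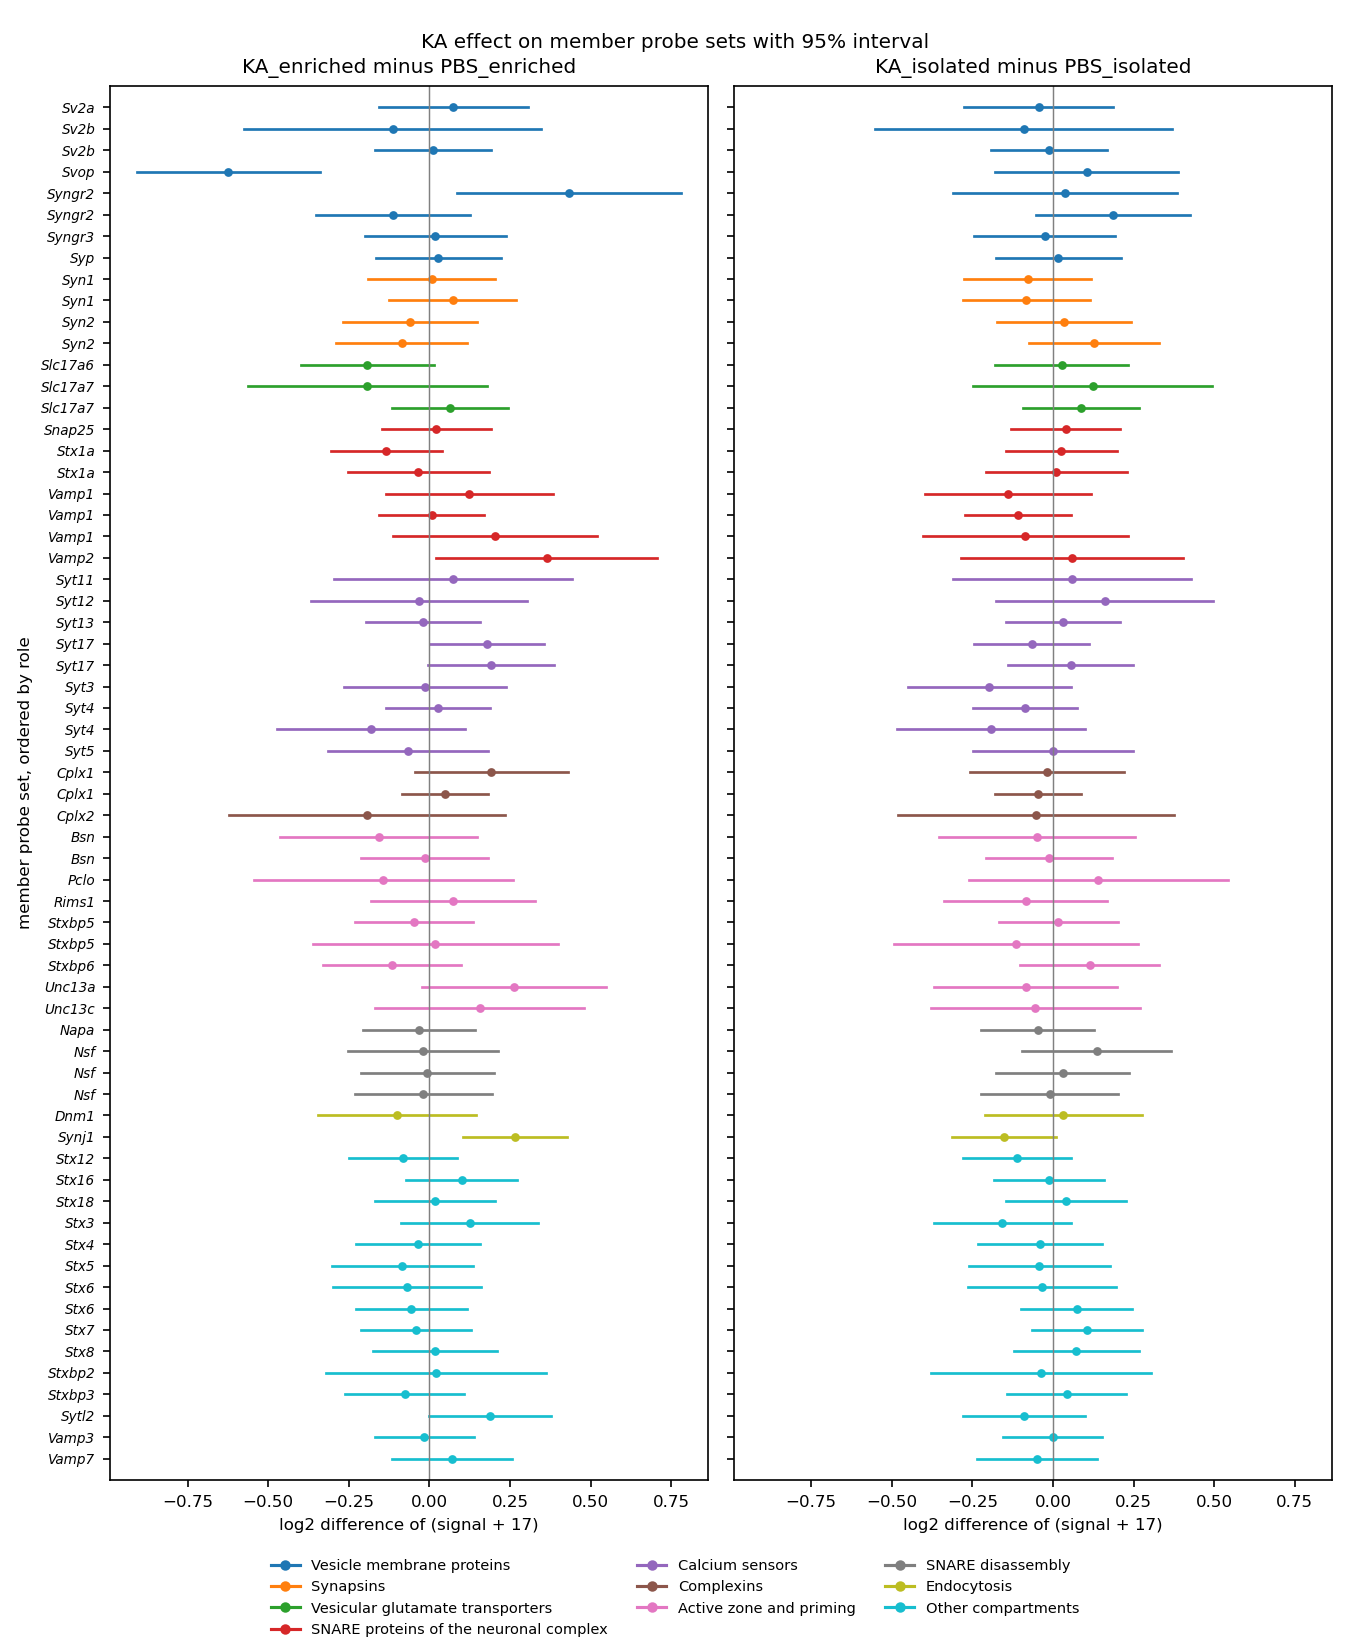
Difference between KA and PBS (log2, points) with 95% intervals (bars) for the 64 tested member probe sets, in enriched rats at the left and isolated rats at the right. The points span -0.62 to 0.43 in enriched rats and -0.20 to 0.19 in isolated rats.

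In isolated rats, 29 of 64 members were higher and 35 lower in KA_isolated than in PBS_isolated, with a median log2 of -0.012, against -0.0053 over the 9520 probe sets tested. limma called 0 members, and 0.0105% of all probe sets tested. At an unadjusted p under 0.05 there were 0 members, against 4.31% of all. Groups that did not overlap were seen in 1 member on the higher side (Stx6; 5.19% of all) and in 4 on the lower side (Synj1, Stx3, Vamp1 and Sv2b; 5.62% of all). These counts, 1 and 4 of 64, were 1.56% and 6.25%. For 62 of the 64, the 95% interval lay within a log2 of 0.5 on either side of 0, that is 1.41-fold, so changes beyond that size lay outside the intervals of these members.

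In enriched rats, 31 members were higher and 33 lower in KA_enriched than in PBS_enriched, with a median of -0.0097, against -0.0033 over all tested. limma called 0 members and 0% of all. Of the members, 5 (7.81%) had an unadjusted p under 0.05, against 4.98% of all: Svop, Synj1, Syngr2, Vamp2 and Syt17. On the higher side, 5 members did not overlap between the groups (7.81%), against 5% of all, and on the lower side 1 member, Svop (1.56%), against 4.62% of all. Intervals lay within a log2 of 0.5 for 55 of 64.

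Housing was compared within each treatment. Between PBS_enriched and PBS_isolated, 28 members were higher and 36 lower, with a median of -0.011 against 0.0026 over all tested; limma called 0 members and 0.0105% of all. At an unadjusted p under 0.05 there were 2 members (Syt17 and Syngr2, both lower; 3.12%), against 4.21% of all. Groups did not overlap in 5 members on the higher side (7.81%), against 5.49% of all, and in 6 on the lower side (9.38%), against 6.11% of all. Between KA_enriched and KA_isolated, 32 were higher and 32 lower, with a median of -0.0014 against 0.0030 over all tested, and limma called 0 members and 0% of all. Here 5 members (Synj1, Svop, Sytl2, Stx3 and Sv2a; 7.81%) had an unadjusted p under 0.05, against 7.02% of all. Groups did not overlap in 4 members on the higher side (6.25%), against 6.28% of all, and in 0 on the lower side, against 4.53% of all. These comparisons share samples with the KA comparisons of each housing.

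The interaction had a median of 0.0017 over the members, against -0.0006 over all tested, with 32 above and 32 below 0. limma called 0 members and 0% of all, and 3 members (Synj1, Svop and Sytl2; 4.69%) had an unadjusted p under 0.05, against 4.97% of all. Intervals were wider here, and 39 of 64 lay within a log2 of 0.5, so a difference of that size between housings was outside the interval for 39 members and inside it for the other 25. For the mean KA effect limma called 0 members and 0.0105% of all, with 1 member (Svop, -0.26, SE 0.09; 1.56%) at an unadjusted p under 0.05, against 4.31% of all. For the mean housing effect it called 0 members and 0.021% of all, with 3 members (Sv2a, Syt17 and Synj1; 4.69%), against 5.64% of all. In both mean effects all 64 intervals lay within a log2 of 0.5.

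**Figure D3:**
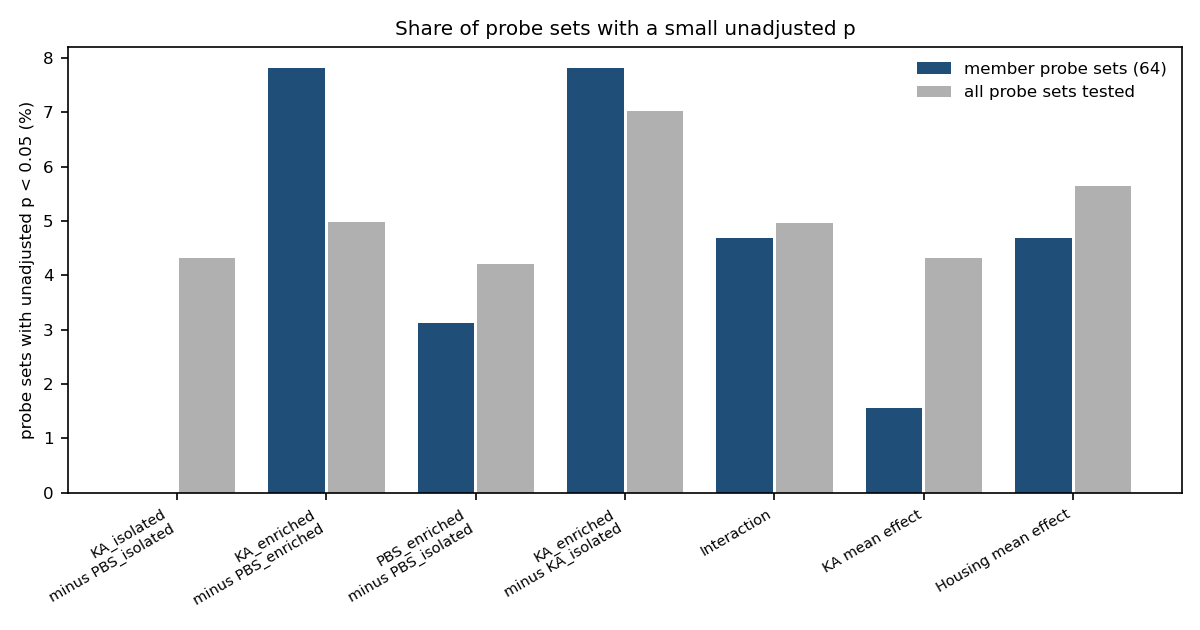
Share (percent) of the 64 members and of all 9520 tested probe sets with an unadjusted p under 0.05, for each of the 7 comparisons. Member shares run from 0% to 7.81%, and those of all probe sets from 4.21% to 7.02%.

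The spread among members was also set out by pool. The median of the members, each centred on its mean over the 12 pools, was 0.015, -0.0095 and 0.0059 in KA_enriched, 0.0094, -0.016 and -0.025 in PBS_enriched, 0.020, 0.022 and -0.025 in KA_isolated and 0.016, -0.028 and 0.039 in PBS_isolated, in log2 units. The 4 groups overlapped.

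**Figure D4:**
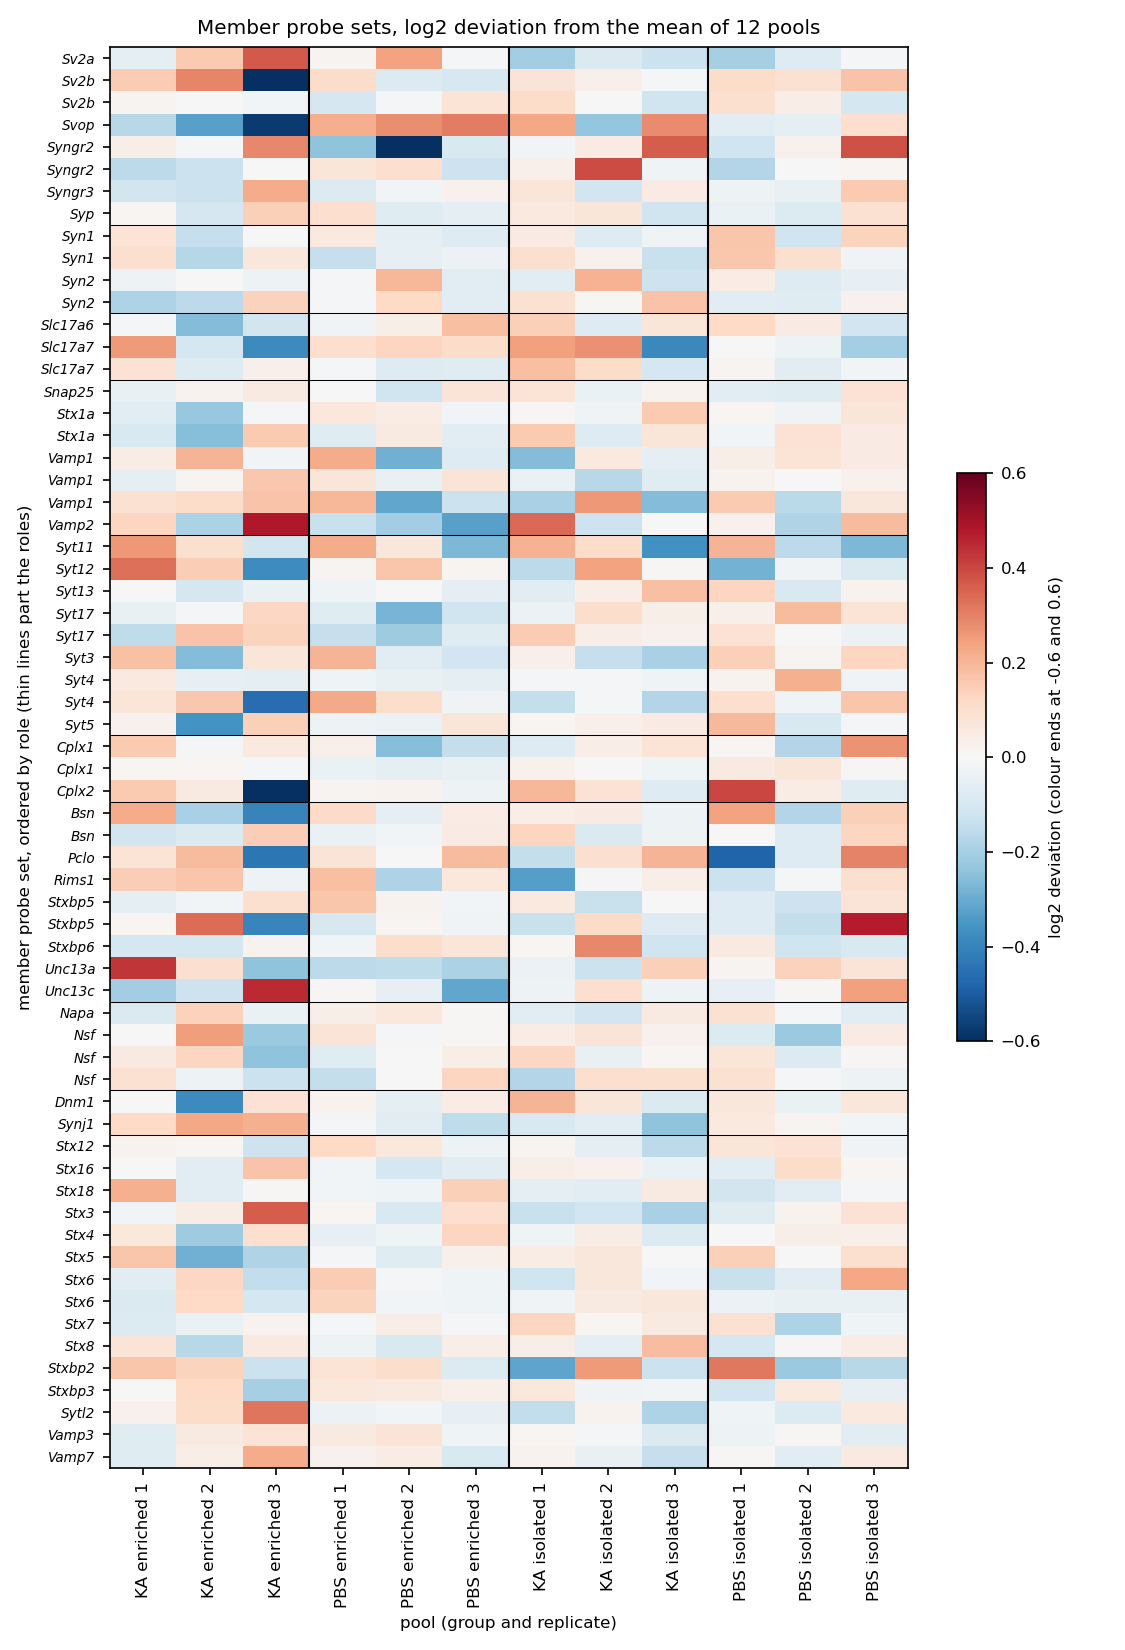
Log2 signal of the 64 tested members (rows) in the 12 pools (columns), each row centred on its mean, ordered by role. The largest deviation from a row mean is that of Sv2b by 1369627_at in KA_enriched replicate 3, which read 534.

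Single pools moved some members more than the groups did. In KA_enriched replicate 3, 9 of 64 members (14.1%) lay more than 0.5 in log2 from the mean of the other KA_enriched pools, against 5.18% of all tested probe sets, and in the other 11 arrays 0% to 4.69% of members did. Of these, 7 were below, namely Sv2b (-1.08), Cplx2 (-0.90), Syt12 (-0.62), Syt4 (-0.57), Stxbp5 (-0.57), Pclo (-0.57) and Unc13a (-0.50), and 2 were above, Unc13c (0.61) and Vamp2 (0.51). Cplx2, the second complexin, read 147 there, against 299 and 278 in the other KA_enriched pools. Where a gene had several tested probe sets, the probe sets did not all show this: Syt4 read 438 by 1375877_at and 299.5 by 1387662_at in this pool. The same pool had the highest ratio of 3 prime to 5 prime signal. With the beta-actin ratio as a covariate the KA difference of Vamp2 in enriched rats was 0.25, against 0.36 without it. In that fit, 55 of 64 members kept their direction for KA against PBS in enriched rats, and 46 of 64 for KA_enriched against KA_isolated. The part of the ratio in the deviations of single members in this pool was not tested.

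**Figure D5:**
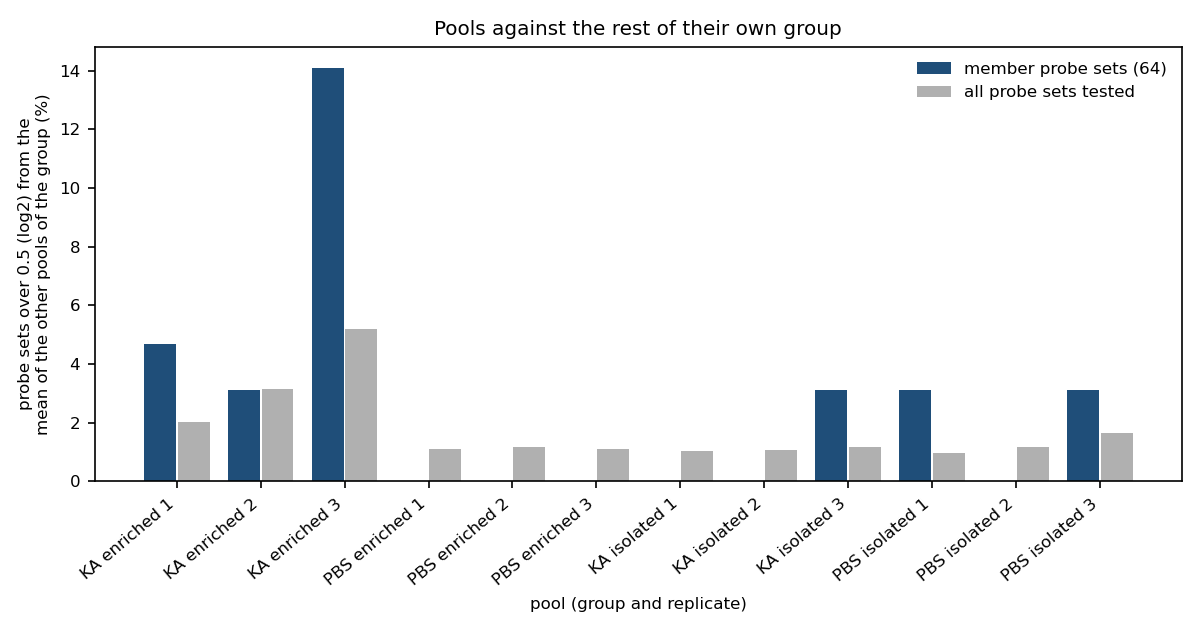
Share (percent) of probe sets more than 0.5 in log2 from the mean of the other pools of their group, for each of the 12 pools, among the 64 members and all 9520 tested. KA_enriched replicate 3 has 14.1% of members and 5.18% of all.

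For 14 genes more than 1 probe set was tested. Their probe sets pointed the same way in 10 of 14 genes for KA in isolated rats, in 9 of 14 for KA in enriched rats, in 7 of 14 for housing after PBS, in 13 of 14 for housing after KA and in 11 of 14 for the interaction. Svop, Synj1, Sv2a, Snap25 and Syp had 1 tested probe set each. Of the 25 probe sets below the filter, some belonged to genes with a tested probe set as well (Pclo, Stx3, Sv2b and Vamp2), and the others included all those of Rims2, Rims3, Sv2c, Syn3, Syngr1, Syt2, Syt6, Syt7, Syt9, Syt10 and Unc13b. These are named by level only: Syngr1, by 1387527_at, read 9.81, 13.0 and 12.9 in KA_enriched, 37.1, 41.3 and 20.6 in PBS_enriched, 7.59, 23.6 and 39.5 in KA_isolated and 25.9, 35.2 and 45.0 in PBS_isolated. By this probe set its KA_enriched pools were below all PBS_enriched pools, at levels near the added constant of 17. By 1383686_at they overlapped, at 2.14, 2.81 and 10.95 in KA_enriched against 7.83, 1.48 and 10.09 in PBS_enriched. Separated groups were not counted among the probe sets below the filter.

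Other genes of the nerve terminal, from a list of vesicle, active zone, endocytosis and dense-core vesicle genes, were not called either. Of 78 listed, 63 were on the array and 50 were tested, and limma called 0 of the 50 in every comparison. At an unadjusted p under 0.05 there were 0 for KA in isolated rats, against 4.31% of all probe sets tested. For KA in enriched rats there were 2 (4%), against 4.98% of all. There were 0 for housing after PBS, against 4.21% of all, and 3 (6%) for housing after KA, against 7.02% of all. No share was above that of all probe sets tested. Chga, the granin chromogranin A of dense-core vesicles, averaged 249 ± 36.1 in KA_enriched and 335 ± 11.6 in PBS_enriched (SD, n = 3 each; difference -0.41, SE 0.10, limma adjusted p = 0.842), and Rab5a, the GTPase of early endosomes, 272 ± 48.7 and 329 ± 15.5 (difference -0.27, SE 0.11). Between KA_enriched and KA_isolated the genes of smallest p were Ap2a2, a subunit of the clathrin adaptor (-0.27, SE 0.11), Nrxn3, a presynaptic adhesion protein (0.43, SE 0.19), and Rab3b, a vesicle GTPase (-0.26, SE 0.12), all with limma adjusted p-values above that of Synj1. Cask, an active zone kinase, had a mean housing difference of 0.17 (SE 0.07, limma adjusted p = 0.832).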

How the data were processed

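The authors deposited 1 table of linear array intensity, with a column for each of 12 arrays and a row for each probe set. How probes were summarised is not stated in the labels. All arrays shared a mean of 150 once 2% of probe sets were trimmed at each end, so they had been scaled before deposit, and no further normalization was applied. The signal of short 3 prime oligonucleotide probes depends on the probes and on RNA quality, so levels were not compared between probe sets, and precision is set by the number of arrays.

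After removal of 57 controls, 17 (the 20th percentile of the table) was added before taking log2, and the 60% of probe sets with the highest mean were tested (9520 of 15866). Differences of dim probe sets are therefore understated. Symbols came from the array annotation, in which 12783 probe sets had 1 symbol, 312 several and 2771 none; 12748 were matched to RefSeq genes by Entrez ID, with 0 symbols changed, and all 89 members were matched. Groups came from the treatment text of the labels and replicate numbers from the titles. One limma 3.58.1 model (R 4.3.3, lmFit and eBayes) with a mean per group over 12 samples gave 7 contrasts with 13.07 degrees of freedom. Two-sided p-values were adjusted by Benjamini-Hochberg over the 9520 probe sets, with a threshold of 0.05. The script was tested on simulated data.

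Genes were named where they passed, where they were among the 3 higher or 3 lower members of smallest p in a contrast, and for 16 core genes wherever measured; genes outside this rule that are named beside a count or a pool were chosen after their values were seen. The members, the role, marker and nerve terminal lists and the alternatives were chosen with earlier results of these data known. The alternatives were other added constants and filters, 1 probe set per gene, quantile normalization and equal medians, array weights, the beta-actin ratio as a covariate, the replicate block, fits on the compared groups alone and leaving out each pool. Some genes of the machinery are not reported here.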

Additional observations from a re-analysis of the deposited data

Results flagged for a closer look

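Synj1 was singled out because its KA and PBS groups did not overlap in either housing and lay in opposite orders. Its signals were 802, 869 and 857 in KA_enriched, against 733, 703 and 661 in PBS_enriched, and 689.8, 702.5 and 621 in KA_isolated, against 769, 745 and 728 in PBS_isolated. The interaction was 0.42 on the log2 scale (SE 0.11), and it did not pass over all probe sets (limma adjusted p = 0.857; the lowest when 1 pool at a time was left out was 0.447). Of 9520 probe sets tested, 47 (0.494%) had groups apart in opposite orders in this way, and 1 of them was a member. The enriched pools that were high in KA_enriched included replicate 3, the array with the highest 3 prime to 5 prime ratio; without it the interaction was 0.41. Every interaction here has 3 pools in each group.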

How the results depend on the processing

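Under 23 other settings no member was called in any comparison (0 in all 158 counts), and all 928 values of named members kept their direction and their side of the threshold. This was largely built in, since these members were picked for the smallest p in these data. Their limma adjusted p-values stayed at 0.267 or above. Over all 64 tested members, directions did change. For KA_enriched against KA_isolated, 46 kept theirs with the beta-actin covariate, 47 without KA_enriched replicate 3 and 59 with quantile normalization. The sizes of the named values were less stable: leaving out 1 pool moved 21 of 42 such results by over 1.5 times in at least 1 fit (25 of 504 values), and the other settings moved 5 of 42 (6 of 424 values). Of 158 member medians, 153 moved by less than the spread between pools. The exceptions were small: with array weights the interaction median was 0.034, and with 1 pool left out at a time it ran from -0.027 to 0.028, the median of the mean housing effect from -0.029 to 0.0023, and that of KA against PBS in enriched rats from -0.018 to 0.020. The ends came from leaving out PBS_isolated replicate 3 (-0.027 and 0.0023), KA_enriched replicate 3 (0.028) and KA_enriched replicate 2 (0.020). Counts of members at an unadjusted p under 0.05 moved more, and 45 of 158 differed by over 1.5 times from those reported. They ranged from 0 to 2 for KA in isolated rats, 2 to 9 for KA in enriched rats, 1 to 5 for housing after PBS, 4 to 10 for housing after KA, 2 to 6 for the interaction, 1 to 5 for the mean KA effect and 1 to 6 for the mean housing effect. Same-numbered pools deviated together with correlations of -0.0721 to 0.199. Pools of different numbers were not compared, so these values do not settle whether the numbers pair the pools. With the replicate block 0 members were called. In that fit 0, 4, 2, 5, 3, 2 and 3 members had an unadjusted p under 0.05 in the 7 comparisons, in the same order. A fit on the compared groups alone gives no separate value for the interaction and the mean effects. With 3 pools a group, intervals within a log2 of 0.5 were reached by 54 to 62 of 64 members in the 4 comparisons of single groups.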
